A study of Mus musculus with 8 samples.

Results

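The genes described here are those of the insulin-like growth factor (IGF) axis in a pair of mouse kidney cell lines: the ligand gene Igf1, the receptor gene Igf1r, the binding protein genes Igfbp2, Igfbp3, Igfbp4, Igfbp5, Igfbp6 and Igfbp7, and the RNA-binding protein genes Igf2bp1 and Igf2bp3. They were taken by gene symbol, which gave 10 of the 55558 genes in the deposited count table. The lines, mK3 and mK4, are wild type and untreated, were grown in DMEM with fetal bovine serum, and come from metanephric mesenchyme, the tissue that forms nephrons. Per the labels, mK3 stands for the uninduced mesenchyme and mK4 for cells that have moved towards epithelium. RNA-seq covered 3 libraries per line and ATAC-seq, which maps accessible DNA with a transposase, 1 library per line. No label ties the 3 RNA libraries to separate cultures. All p-values therefore speak of library-to-library spread, part of which may be technical, and fewer expressing cells cannot be told apart from less RNA per cell. Each line is a single line, so line and differentiation state cannot be told apart. Serum itself carries IGFs and their binding proteins, which RNA counts do not see.

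IGF1 and IGF2 are secreted growth factors that signal through the IGF1 receptor, a tyrosine kinase that acts through the IRS adaptors on the PI3K-AKT and ERK pathways. The IGFBPs bind the ligands outside the cell, prolong their life or withhold them from the receptor, and are cut by proteases that set the ligand free. IGF signalling promotes growth of the developing kidney. The IGF2BPs are RNA-binding proteins of embryonic cells that stabilise or localise messenger RNAs, and do not bind IGF protein.

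The total was 137559391 to 152952351 counts per RNA library, and 133899125 to 146187601 of these fell in genes. On the log2 scale, correlations across genes were 0.9437 to 0.9577 within a line and 0.7665 to 0.7839 between lines. The line labels were checked against marker genes. The 9 mesenchymal markers summed to 3172 to 3769 CPM (counts scaled to library size) in the mK3 libraries and 289 to 307 CPM in mK4. Vim went against that sum, averaging 172 ± 1.28 CPM across the mK3 libraries and 231 ± 10.8 CPM across those of mK4, and Thy1 was at 0 in both lines. The 9 kidney epithelial markers summed to 1.65 to 3.71 CPM in mK3 and 132 to 147 CPM in mK4. Among the defining epithelial markers, Epcam and Krt18 were at 0 in all mK4 libraries and Cdh1 had 59, 0 and 59 counts, while Cdh16 stood at 84.2 ± 4.41 CPM and Pax8 at 39.4 ± 3.91 CPM there. The 8 nephron progenitor markers summed to 20.8 to 22.2 CPM in mK3 and 200.5 to 268 CPM in mK4. Eya1 made up most of the mK4 sum (10.1 ± 0.818 CPM in mK3 and 187 ± 31.1 CPM in mK4). Osr1 went the other way (11.2 ± 0.779 and 2.25 ± 0.235 CPM) and Six2 was at 0 in mK4. Pax2, Sall1, Wt1 and Meox1 were at 0 in mK3, and Wt1 and Meox1 had at most 103 and 16 counts in any mK4 library. Endothelial, leukocyte and skeletal muscle markers each summed to at most 8.17 CPM in any library, with Adgre1 and Itgam at 0 throughout. Cdh5 made up most of the mK4 endothelial sum (0 in all mK3 libraries and 7.35 ± 0.402 CPM in mK4). Kdr and Tek went the other way (1.44 ± 0.31 and 1.78 ± 0.392 CPM in mK3, and 0 in mK4). Contractile cell markers summed to 622 to 701 CPM in mK3 and 0.866 to 1.98 CPM in mK4, and the part of these marker differences in the results below was not tested.

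Promoter windows, from 250 bases before to 50 bases after an annotated start, were available from RefSeq (GRCm38.p6, the assembly of mm10) for 9 of the 10 genes. The following 4 are shown because they stand at the genes on which the results turn. Igfbp2 and Igfbp5 are neighbours and were read out in mK4 only, Igfbp4 rose most among the genes with counts in both lines, and Igfbp7 alone had an ATAC-seq peak over its window. Each is printed from 5′ to 3′ on the gene's strand. Capitals mark GC boxes (GGGCGG) and TATA boxes (TATAAA), searched on both strands.
Igfbp2, chr1:72824230-72824529, plus strand: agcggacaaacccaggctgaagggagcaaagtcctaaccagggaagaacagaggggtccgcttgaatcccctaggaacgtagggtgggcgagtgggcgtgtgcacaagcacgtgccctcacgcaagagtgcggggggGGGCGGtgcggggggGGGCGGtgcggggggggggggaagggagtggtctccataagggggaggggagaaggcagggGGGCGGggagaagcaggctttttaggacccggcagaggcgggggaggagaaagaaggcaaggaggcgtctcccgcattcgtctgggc
Igfbp5, chr1:72874816-72875115, minus strand: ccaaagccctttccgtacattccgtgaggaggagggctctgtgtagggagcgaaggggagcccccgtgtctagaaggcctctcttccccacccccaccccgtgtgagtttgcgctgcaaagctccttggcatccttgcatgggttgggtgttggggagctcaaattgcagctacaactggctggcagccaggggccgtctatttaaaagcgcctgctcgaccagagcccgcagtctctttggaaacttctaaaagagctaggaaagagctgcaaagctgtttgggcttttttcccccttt
Igfbp4, chr11:99040994-99041293, plus strand: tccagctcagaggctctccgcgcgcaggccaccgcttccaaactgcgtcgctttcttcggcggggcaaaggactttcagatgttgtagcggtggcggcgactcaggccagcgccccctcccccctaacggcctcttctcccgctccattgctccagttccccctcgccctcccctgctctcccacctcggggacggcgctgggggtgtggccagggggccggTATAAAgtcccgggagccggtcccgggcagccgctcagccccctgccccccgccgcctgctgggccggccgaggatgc
Igfbp7, chr5:77407996-77408295, minus strand: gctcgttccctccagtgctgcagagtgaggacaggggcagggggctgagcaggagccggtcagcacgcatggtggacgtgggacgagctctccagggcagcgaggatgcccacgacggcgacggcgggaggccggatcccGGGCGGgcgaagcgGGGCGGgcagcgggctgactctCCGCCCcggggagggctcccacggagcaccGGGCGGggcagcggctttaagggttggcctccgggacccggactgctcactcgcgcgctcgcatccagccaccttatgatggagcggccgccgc

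Igfbp2 has a second annotated start, whose window (chr1:72825137-72825436) held 0 GC boxes and 14 CG dinucleotides; the window meant below is the one printed. The Igfbp7 window held 4 GC boxes and the Igfbp2 window 3, while 35.7% of all 32851 RefSeq promoter windows of this length held at least 1. The Igfbp4 window held a TATA box whose first base lies 28 bases before the start, and 13.6% of all windows held one anywhere. The Igfbp6 window held one on the opposite strand only, 148 bases before the start, and the Igf1r window held 2 GC boxes. Neither motif was found in the Igfbp5 window. CG dinucleotides numbered 33 in the Igfbp7 window, 27 in that of Igfbp4, 18 in that of Igfbp2 and 10 in that of Igfbp5, with a median of 7 over all windows. The other members ranged from 6 in the Igf1 window to 48 in the Igf1r window. The Igfbp7 promoter was thus rich in both GC boxes and CG dinucleotides, and it was open in both lines, as described below. The windows of Igf1r and Igfbp3 held more CG dinucleotides (48 and 37), and no peak lay over them in either line.

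Of the 10 genes, 9 passed the filter on low counts and Igfbp3 did not. Igfbp2, Igfbp4 and Igfbp5 passed through their mK4 libraries alone, so a difference in these was fixed by the filter in part. The same holds for the genes below that were at or near 0 in 1 line: Igf2, Igf2os, Lin28b and Stc1 passed through mK4, and Pappa, Mmp14 and Pdk4 through mK3, and the p-values of all of these are no separate evidence. With edgeR's quasi-likelihood test and Benjamini-Hochberg adjustment over all genes at a threshold of 0.05, 4 of the 9 were higher in mK4 (Igf1r, Igfbp2, Igfbp4 and Igfbp5), 4 were lower (Igf1, Igfbp6, Igfbp7 and Igf2bp3) and Igf2bp1 was not called. Over all 20405 tested genes, 40.3% were called, 20.8% as higher and 19.5% as lower. These shares, here and below, cover genes of all levels and were not matched for expression level. The libraries of the lines did not overlap for 7 of the 9 genes, and did not overlap for 56.1% of all tested genes. With so large a background, the count by itself says little about these 10 genes, and the sizes and the members' identities carry the description. Transcript lengths were not used here, so levels are compared between lines for 1 gene at a time and not between genes.

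**Figure D1:**
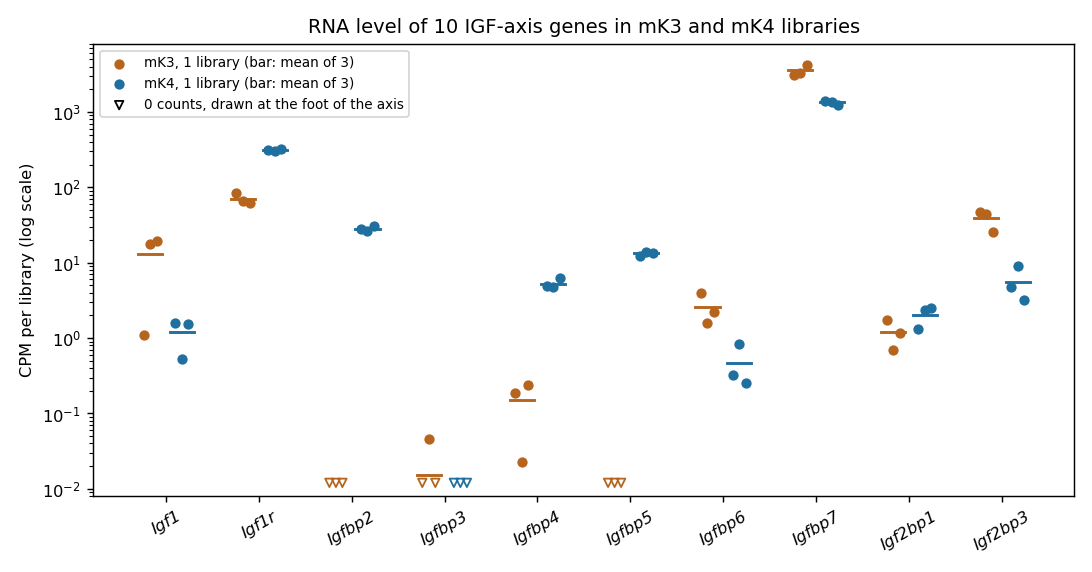
CPM of each of the 10 genes in each RNA library on a log axis, with mK3 in brown, mK4 in blue, a bar at the mean of 3 libraries and open triangles for libraries at 0 counts. Igfbp2 and Igfbp5 are at 0 in all mK3 libraries, and 1 mK3 library of Igf1 lies within the range of the mK4 libraries.

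Igf1, the ligand gene, was unevenly expressed within mK3. It had 160, 2366 and 2452 counts in the mK3 libraries 1 to 3 and 214, 81 and 231 counts in mK4, which is 1.11, 17.9 and 19.7 CPM against 1.57, 0.532 and 1.54 CPM. The first mK3 library was at the level of mK4 and 17.7-fold below the highest mK3 library, so the groups overlapped. The mean was 12.9 ± 10.3 CPM in mK3 and 1.21 ± 0.59 CPM in mK4 (SD, n = 3 libraries). Igf1 was called lower in mK4 with a log2 fold change of -3.41 (SE 1.06, edgeR adjusted p = 0.0446). Leaving out mK3 replicate 1 gave -3.95 (edgeR adjusted p = 0.00442). Leaving out any 1 of the other 5 libraries ended the call (adjusted p = 0.106 to 0.127), as did limma-voom (-2.70, adjusted p = 0.195). Igf1os, an antisense transcript of the locus, had 105 counts in mK3 replicate 2 and 0 in the other 5 libraries. The libraries are strand-specific per the labels, but no source here says whether the counting used strand, so reads of overlapping antisense pairs may not be separated.

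The other ligand gene, Igf2, was not among the 10 and is needed to read them. It had 0 counts in all mK3 libraries and 5137, 5339 and 5769 counts in the mK4 libraries, or 37.0 ± 1.76 CPM (SD, n = 3), at least 1534-fold higher against a floor of 3 counts per library. A called gene at 0 in every mK3 library was seen for 2.37% of tested genes. Igf2os, antisense to Igf2, had 0 counts in mK3 and 212, 254 and 221 in mK4. H19, the noncoding RNA gene beside Igf2 that is expressed from the opposite parental copy, had 0 counts in all 6 libraries. In mK4 the Igf2 transcript was thus present where that of H19 was not detected.

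Igf1r, the receptor gene, was higher in every mK4 library. Counts were 12178, 8688 and 7806 in the mK3 libraries and 42408, 45754 and 47991 in those of mK4, or 84.8, 65.6 and 62.9 CPM against 311, 301 and 319.7 CPM. The lowest mK4 library stood well above the highest mK3 library, and the mK4 libraries differed by 1.06-fold at most. The difference was 4.37-fold, a log2 fold change of 2.13 (SE 0.13, edgeR adjusted p = 8.16e-05). The related receptor genes were not called, although their libraries did not overlap between the lines either. For Insr, the insulin receptor gene, the mK3 mean was 116 ± 43.4 CPM and the mK4 mean 255 ± 94.9 CPM. Its edgeR adjusted p was 0.0595, with 5 of 13 alternatives past the threshold (range over all 13 of 0.00501 to 0.165). For Igf2r, whose product carries IGF2 to lysosomes, the means were 412 ± 38.7 and 351 ± 8.69 CPM. Its adjusted p was 0.0615, with 3 of 13 alternatives past the threshold (range over all 13 of 0.0202 to 0.378).

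Igfbp2 and Igfbp5 were read out in mK4 only. Both had 0 counts in all 3 mK3 libraries, which allows up to 0.0242 CPM at 3 counts in the shallowest of them. Igfbp2, whose product is the abundant binding protein of fetal tissues, had 3825, 4048 and 4586 counts in the mK4 libraries (28.0, 26.6 and 30.6 CPM). It was at least 1175-fold higher than the floor (edgeR adjusted p = 3.75e-05). Igfbp5, which encodes a binding protein that also attaches to extracellular matrix, had 1672, 2150 and 2037 counts (12.2, 14.1 and 13.6 CPM), at least 551-fold above the floor (adjusted p = 6.38e-05). Floors cover counting error only. The mK4 libraries of both genes agreed closely, each within 1.15-fold.

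The 2 genes lie next to each other on chromosome 1 and point towards each other. Igfbp2 runs from 72824480 to 72852474 on the plus strand and Igfbp5 from 72858065 to 72874865 on the minus strand (mm10), with 5.59 kb between their ends. The nearest protein-coding genes on either side were expressed in both lines or in neither. Rpl37a, a ribosomal protein gene, rose from 146 ± 29.1 to 225 ± 4.7 CPM (log2 fold change 0.63, SE 0.15, edgeR adjusted p = 0.0182), and Tnp1, a gene of sperm chromatin, was at 0 in all 6 libraries.

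Igfbp4, whose product mostly withholds IGFs from the receptor, gave 27, 3 and 30 counts in the mK3 libraries and 674, 723 and 932 in those of mK4. These are 0.188, 0.0227 and 0.242 CPM against 4.94, 4.75 and 6.21 CPM, with no overlap. The log2 fold change was 5.13 (SE 0.79, edgeR adjusted p = 0.0033), or 35.0-fold, from an mK3 level of few counts. Igfbp3, the main carrier of IGFs in serum, was nearly absent, with 0, 6 and 0 counts in mK3 and 0 in mK4. Its neighbour Igfbp1 had 0 counts in all 6 libraries. Neither gene was tested.

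Igfbp7 and Igfbp6 went the other way. Igfbp7 encodes a secreted protein of the matrix that binds IGFs weakly and is a known product of stromal and senescent cells. Counts were 449474, 435295 and 529038 in the mK3 libraries and 189899, 209331 and 188432 in those of mK4, or 3128, 3289 and 4260 CPM against 1391, 1375 and 1255 CPM. No libraries overlapped, and Igfbp7 stood at 1255 CPM or more in every mK4 library. The difference was 2.65-fold, a log2 fold change of -1.41 (SE 0.13, edgeR adjusted p = 0.000395). Igfbp6, whose product prefers IGF2 over IGF1, was lower as well, with 569, 211 and 276 counts in the mK3 libraries and 44, 126 and 38 in mK4. These are 3.96, 1.59 and 2.22 CPM against 0.322, 0.828 and 0.253 CPM. The log2 fold change was -2.47 (SE 0.61, edgeR adjusted p = 0.0194), a call that was lost without mK3 replicate 1 (-2.03, adjusted p = 0.061), mK4 replicate 1 (-2.26, adjusted p = 0.0689) or mK4 replicate 3 (-2.17, adjusted p = 0.056). Without mK4 replicate 2 the value was -3.16 (adjusted p = 0.011).

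The IGF2BP genes differed from one another. Igf2bp3 fell in mK4, with 6826, 5939 and 3145 counts in the mK3 libraries and 658, 1360 and 474 in mK4 (47.5, 44.9 and 25.3 CPM against 4.82, 8.93 and 3.16 CPM). The groups did not overlap although libraries of a line differed by up to 1.88-fold in mK3 and 2.83-fold in mK4. The log2 fold change was -2.80 (SE 0.45, edgeR adjusted p = 0.00401), or 6.96-fold. Igf2bp1 gave 248, 93 and 145 counts in the mK3 libraries and 179, 356 and 373 in those of mK4 (1.73, 0.703 and 1.17 CPM against 1.31, 2.34 and 2.48 CPM). Its groups overlapped, and its log2 fold change of 0.77 (SE 0.43, edgeR adjusted p = 0.213) was not called. The third family member, Igf2bp2, stood at 14.1 ± 0.406 and 15.6 ± 0.962 CPM (log2 fold change 0.14, SE 0.11, adjusted p = 0.342). The differences between these family members were not tested as such.

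**Figure D2:**
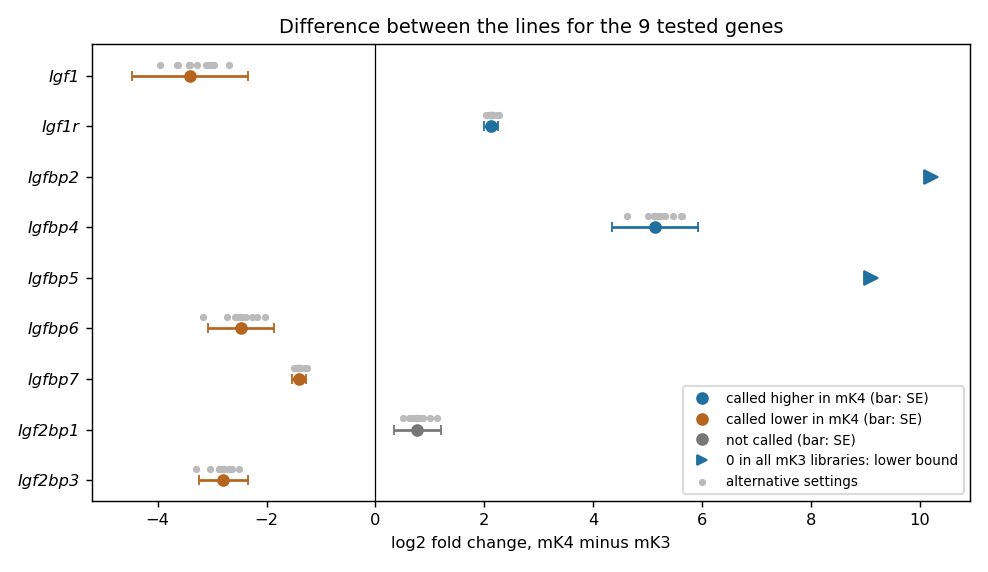
Log2 fold change of mK4 minus mK3 for the 9 tested genes, with the SE as a bar, and small grey points for the alternative settings. Arrowheads are lower bounds for the genes at 0 in all mK3 libraries. Igf1, with an SE of 1.06, has the widest bar, and Igf1r and Igfbp7, with an SE of 0.13 each, have the narrowest.

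IGF2BP1 and IGF2BP3 messages are textbook targets of the let-7 family of microRNAs, whose maturation the protein LIN28B blocks, so both were examined. The family shares 1 seed, bases 2 to 8, in capitals in the mature sequences below (RefSeq, GRCm38.p6). Shown are 1 member that was not called, 1 that was lower and 1 that was higher in mK4.
mmu-let-7i-5p: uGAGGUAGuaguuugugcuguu
mmu-let-7c-5p: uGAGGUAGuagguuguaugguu
mmu-let-7f-5p: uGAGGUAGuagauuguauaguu

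Of the 9 let-7 and miR-98 5p arms, 2 were higher in mK4 and 2 were lower, with a median log2 fold change of -0.06, in an edgeR fit over 461 miRNAs of which 67.7% were called. CPM here are scaled to the miRNA counts alone. let-7i-5p averaged 16697 ± 929 CPM in mK3 libraries and 16847 ± 705 CPM in those of mK4 (edgeR adjusted p = 0.935). let-7c-5p fell from 14495 ± 529.9 to 8857 ± 506 CPM (adjusted p = 0.00011) and let-7f-5p rose from 8820.2 ± 699 to 11385 ± 538 CPM (adjusted p = 0.0171). Over both arms, 3 of 18 tested members were higher and 7 lower. Thus 4 of the 9 5p arms and 10 of the 18 were called, both shares below that of all miRNAs tested. Lin28b had 0 counts in all mK3 libraries and 396, 546 and 320 in mK4 (2.87 ± 0.728 CPM), at least 119-fold above the floor.

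RNAs and proteins known to work with the IGF2BPs were lower more often than higher. In this list of 21, 19 were tested, 10 were called lower and 4 higher. This is 73.7% called, against 40.3% of all tested genes (19.5% lower and 20.8% higher), with a median log2 fold change of -0.43 against 0.02. Leaving out 1 library gave 7 to 10 lower and 3 to 4 higher. Hmga2, an embryonic chromatin protein gene that is also a let-7 target, fell from 190.0 ± 17.2 to 72.0 ± 7.58 CPM, and the adhesion receptor gene Cd44 fell from 1351 ± 47.9 to 626 ± 38.5 CPM. Dicer1, the gene of the enzyme that cuts microRNA precursors, fell from 53.8 ± 2.7 to 32.4 ± 1.6 CPM, and Ythdf2, a reader of methylated RNA, from 132 ± 5.85 to 98.1 ± 1.15 CPM. Besides Igf2 and Lin28b, the higher genes were Btrc, a ubiquitin ligase gene (24.3 ± 3.18 to 52.6 ± 2.88 CPM), and Mettl14, of the RNA methyltransferase (38.1 ± 6.81 to 57.7 ± 5.13 CPM). The adjusted p of the last was 0.0218, and its call was lost without mK4 replicate 1 or 2 (range over 13 alternatives 0.00127 to 0.068). For the other genes in this paragraph the edgeR adjusted p was 0.00261 (Ythdf2) or less. For Igf2 and Lin28b it is no separate evidence, as stated above.

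Genes of the proteases that cut IGFBPs, and of the inhibitors of these, differed widely. Of 13 tested of 14 listed, 6 were lower in mK4 and 3 higher, with a median of -1.31. That is 69.2% called, beside 40.3% over all genes (19.5% lower and 20.8% higher). Pappa encodes a protease that cleaves IGFBP4 and IGFBP5. Its counts were 4815, 4640 and 4752 in the mK3 libraries and 0 in all of mK4, a drop of at least 1620.2-fold to the floor. Pappa was thus read out only in the line where Igfbp5 was at 0 and Igfbp4 at 0.151 ± 0.114 CPM. Other genes of the list did not share this pattern. Htra1 was higher in mK4, as given below. Adam9 (583 ± 173 CPM in mK3 and 509 ± 26.8 CPM in mK4) and Pappa2 (2.82 ± 1.6 and 1.13 ± 1.51 CPM) were among the 4 not called. The membrane protease gene Mmp14 gave 12263, 8689 and 7922 counts in the mK3 libraries and 0, 1 and 12 in those of mK4. Timp3, a metalloproteinase inhibitor gene, fell from 209.8 ± 2.78 to 25.1 ± 1.22 CPM, and Adam12, whose product cuts IGFBP3 and IGFBP5, from 27.1 ± 1.33 to 1.92 ± 0.376 CPM. Higher in mK4 were Htra1, a secreted serine protease gene (57.2 ± 3.07 to 119 ± 4.23 CPM), and Ctsd, the lysosomal cathepsin D gene (180.4 ± 14.3 to 247 ± 6.67 CPM). The edgeR adjusted p of these genes was 0.00418 (Ctsd) or less, which for Pappa and Mmp14 is no separate evidence, as stated above. The third higher gene, Stc1, and the lower genes Mmp2 and Htra3 are not described further. Several of these are also genes of mesenchymal matrix, and mesenchymal markers differed between the lines as given above; the part of that difference was not tested.

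Downstream of the receptor, 35 genes were tested, of which 4 were called higher and 10 lower. This, at 40.0% called, is near the 40.3% of all genes. The adaptor genes went in opposite directions. Irs1 fell from 225 ± 3.57 to 112 ± 4.77 CPM (log2 fold change -1.01, SE 0.06, edgeR adjusted p = 7.85e-05) and Irs2 rose from 14.9 ± 3.65 to 38.5 ± 7.47 CPM (1.37, SE 0.23, adjusted p = 0.0043). Grb10, an inhibitory adaptor gene, fell from 599.8 ± 25.7 to 334 ± 4.25 CPM. The kinase gene Akt1 fell from 179 ± 16.1 to 72.7 ± 2.58 CPM and the transcription factor gene Foxo1 from 109.8 ± 6.21 to 44.6 ± 2.15 CPM, while Foxo3 rose from 108 ± 10.3 to 148 ± 6.57 CPM. Sos2, an activator of RAS, rose from 51.9 ± 5.28 to 122 ± 14.7 CPM, and Pik3cb, a PI3-kinase subunit gene, from 95.5 ± 7.35 to 131 ± 4.30 CPM. The adjusted p of these was 0.00841 (Foxo3) or less. Akt2, Tsc1, Tsc2 and Mtor were among the 21 genes not called.

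Genes that FoxO factors induce when AKT is inactive were called in 12 of 17 cases, 8 higher in mK4 and 4 lower, with a median of 0.88. The share called was 70.6%, and over all genes it was 40.3% (20.8% higher and 19.5% lower). Irs2 stands in this list as well. Bcl6, a transcriptional repressor gene, rose from 3.82 ± 0.286 to 13.4 ± 0.659 CPM, and Sesn3, a sestrin gene, from 17.9 ± 1.28 to 59.9 ± 4.49 CPM. Ccng2, a cyclin gene tied to cell cycle exit, rose from 16.9 ± 1.35 to 31.3 ± 2.04 CPM and the mitophagy kinase gene Pink1 from 17.5 ± 2.34 to 40.5 ± 6.31 CPM. Sod2, of mitochondrial superoxide dismutase, fell from 58.9 ± 1.80 to 33.9 ± 1.79 CPM, and the ubiquitin ligase gene Fbxo32 from 12.9 ± 1.01 to 7.71 ± 0.105 CPM. The edgeR adjusted p of these 6 was 0.00404 (Fbxo32) or less. Pdk4, a kinase gene that restrains glucose oxidation, went from 697, 613 and 535 counts to 0 in all of mK4, at least 209-fold lower. It falls outside the rule for named genes and was added after its values were seen. Gadd45a, a DNA damage response gene, stood at 9.34 ± 2.24 and 5.33 ± 0.772 CPM with an adjusted p of 0.0334, which was lost without mK3 replicate 2 or 3 or any 1 of the mK4 libraries (range over 13 alternatives 0.00476 to 0.105).

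**Figure D3:**
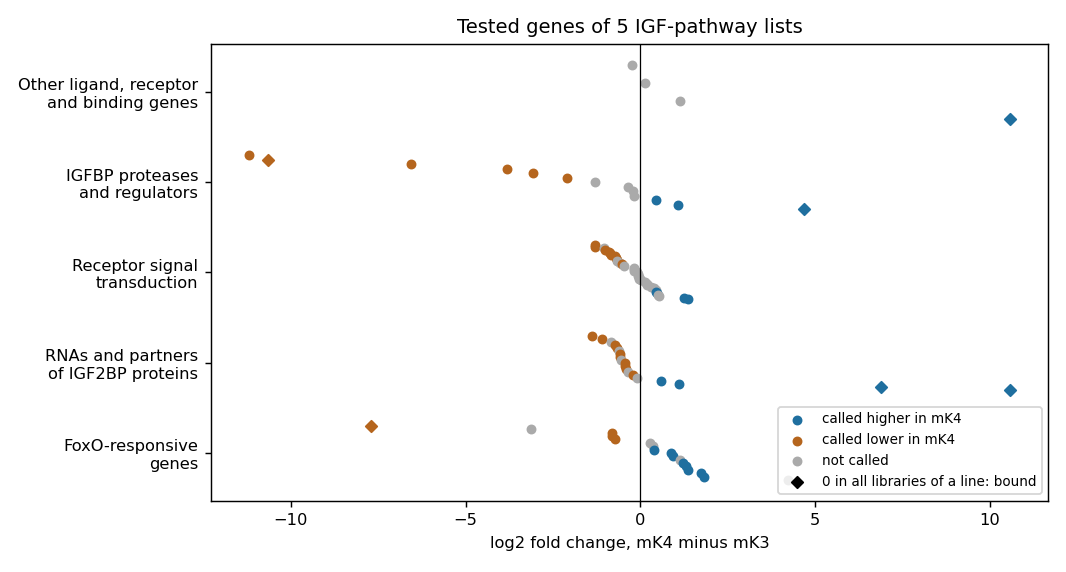
Log2 fold change of mK4 minus mK3 for the tested genes of 5 lists, 1 point per gene, in blue for genes called higher, brown for lower and grey for not called. Diamonds are bounds for genes at 0 in all libraries of a line. The proteases spread widest, with Pappa and Mmp14 far to the left, while the 35 receptor signalling genes lie close to 0.

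In the ATAC-seq peak lists, peaks were counted inside each gene or within 10 kb of it. With 1 library per line, and 22477 peaks in mK3 against 34710 in mK4, no test was made. A peak listed in 1 line only is a statement about these lists. Fold enrichment is the authors' value for each peak. Of the 10 genes, 5 had a peak in mK3 and 7 in mK4, against 58.1% and 65.3% of all protein-coding genes. Together they held 18 peaks in mK3, of which 14 shared at least 1 bp with a peak of mK4, and 28 in mK4, of which 16 had a partner in mK3. Of all peaks, 71.9% in mK3 and 47.0% in mK4 had such a partner.

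Only Igfbp7 had a peak over a promoter window, in both lists, against 38.3% of all genes in mK3 and 42.2% in mK4. Its peak at chr5:77407603-77408176 in mK3 had a fold enrichment of 5.86 and that at chr5:77407710-77408173 in mK4 one of 6.18. They covered 181 and 178 of the 300 bases printed above. Igfbp7 was thus open at its start in both lines, while its RNA was 2.65-fold lower in mK4.

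Igf1r held the most peaks among these genes in mK4, with 9 against 3 in mK3. It is also the longest of the 10 genes, at 281412 bases. All 3 mK3 peaks, at 16.3, 69.7 and 177 kb downstream of the start, had a partner in mK4. The mK4 list added a peak upstream, centred at -1.23 kb from the start (chr7:67950884-67951168, fold enrichment 4.31) and 5 inside the gene. Igf1 shared a strong peak 19 kb into the gene between the lines, with fold enrichments of 9.87 in mK3 and 10.6 in mK4, and had 2 further peaks in mK3 only. One of these, with a fold enrichment of 3.12, was centred at -0.413 kb from the start of the promoter window's transcript, inside the annotated gene (chr10:87860573-87860824).

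At the Igfbp2 and Igfbp5 pair, mK3 had no peak within 10 kb, and the nearest to an annotated start lay 113 kb from Igfbp2 and 88.5 kb from Igfbp5. In mK4 a single peak was centred upstream of Igfbp5, at -3.16 kb from its start (chr1:72877906-72878139, fold enrichment 3.94, -log10 q 5.79), and the peak nearest to an Igfbp2 start was 40.9 kb away. Igfbp3 and Igfbp4 had none in either list at that distance, although Igfbp4 was transcribed in mK4. Igf2 likewise had none, and the nearest mK4 peak to any of its 4 annotated starts was 119 kb away. Expression without a listed peak inside or within 10 kb of the gene was thus seen for Igf2, Igfbp2 and Igfbp4 in mK4.

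Igf2bp3 and Igfbp6 were lower in mK4 without fewer peaks. Igf2bp3 had 3 peaks in mK3, all with a partner, and 5 in mK4, of which 4 had a partner. The mK4 peaks at chr6:49096379-49096817 and chr6:49096910-49097543 both lay over the same mK3 peak, chr6:49096385-49097458. The shared peak about 3 kb upstream of the Igf2bp3 start had a fold enrichment of 3.51 in mK3 and 7.08 in mK4. Igfbp6 had 2 peaks in mK3, both with a partner, and 3 in mK4, the added one centred at -0.897 kb from its start (chr15:102143030-102143549, fold enrichment 3.59). Igf2bp1 had 1 weak peak inside the gene in mK4 only (fold enrichment 3.16, -log10 q 3.38).

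**Figure D4:**
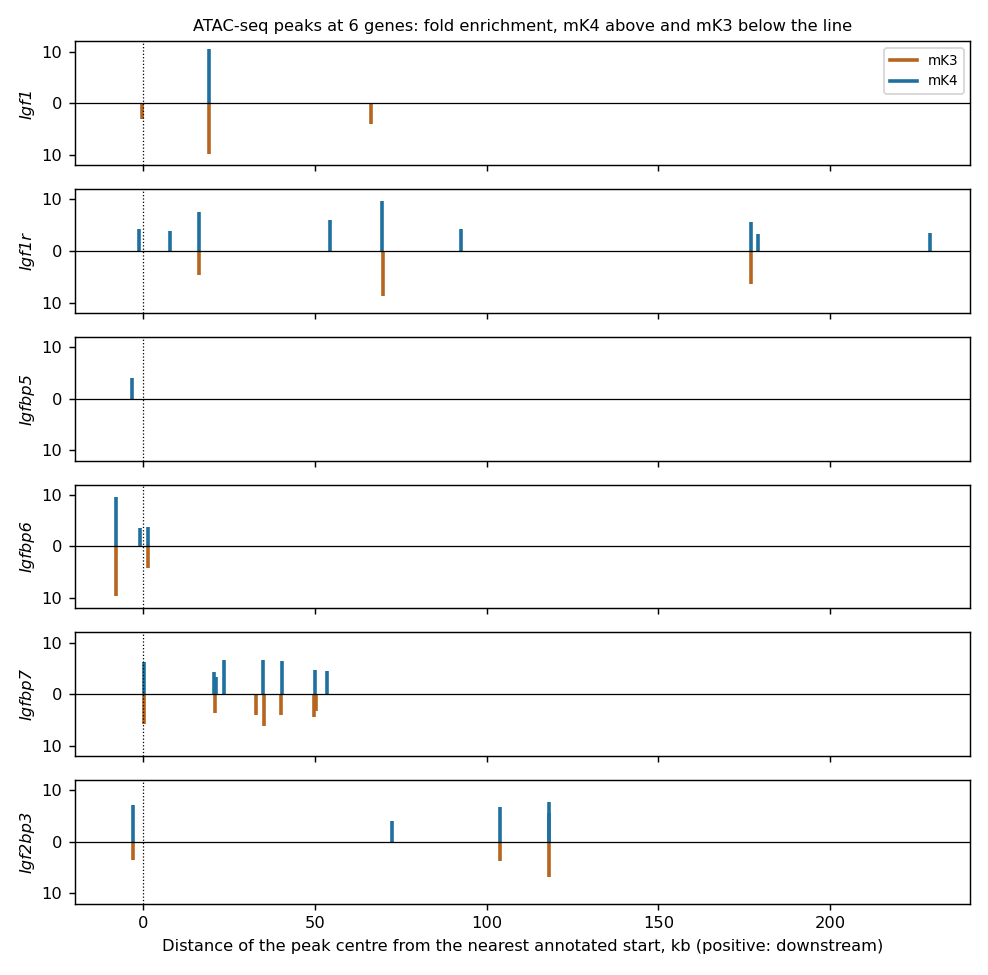
Fold enrichment of the ATAC-seq peaks at 6 of the genes against the distance of the peak centre from the nearest annotated start in kb, with mK4 drawn upwards in blue and mK3 downwards in brown. Igf1r has 9 peaks in mK4 and 3 in mK3, and Igfbp5 has 1 peak, in mK4.

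For each tested gene, the protein-coding gene with the nearest profile was the one with the smallest Euclidean distance in log2(CPM + 0.1) over the 6 libraries. This was Pgm5 for Igfbp2 (distance 0.0925), Aldh1l1 for Igfbp5 (0.264), Kcnn4 for Igfbp4 (0.631), Hadh for Igf1r (0.497), Vmp1 for Igfbp7 (0.462), Nod1 for Igf2bp3 (1.05), Cbx8 for Igf2bp1 (0.693) and Gm20683 for Igfbp6 (1.14). Igf1 had no close match, with 9130008F23Rik at 2.58. With 2 lines the distance mostly reflects the level in each line.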

How the data were processed

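The deposited expression table gives raw read counts. The submitters' processing notes name HTSeq 2.0.2, STAR 2.7.10a, MACS3, Bowtie2, deepTools, bedtools and SAMtools with build mm10, without roles. How counts were set to strands, and the peak settings, were not given there. Per the labels, the RNA libraries were ribosomal RNA-depleted and strand-specific. The deposited peak lists give each peak's fold enrichment (a ratio) and -log10 q as the authors' caller wrote them.

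Gene counts were fitted with edgeR 4.0.16 (R 4.3.3; filterByExpr, TMM scaling, robust quasi-likelihood test, mK4 against mK3), with Benjamini-Hochberg adjustment over all tested genes and calls at 0.05. miRNAs were fitted apart. CPM use TMM-scaled library sizes. The SE given with an edgeR log2 fold change is its absolute value divided by the square root of the test's F statistic. A gene at 0 throughout a line was bounded with 3 counts per library. Every replicate pair differed by more than counting noise (chi-square per degree of freedom at least 126). Same-numbered libraries of the lines did not deviate together (correlations -0.0191 to 0.0207), so no block was used. DESeq2 1.42.0 and limma 3.58.1 served as alternatives. Peaks on chromosomes other than the autosomes, X and Y were left out.

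The members and lists were chosen with earlier results of these data known. Named genes are the 10 members, up to 4 called genes per list and direction with the smallest adjusted p and a mean log2 CPM of at least 0, 11 genes fixed by name and each tested member's nearest profile. Igf1os, Igf2os, Rpl37a, Tnp1, Pdk4 and the printed let-7 members were chosen after their values were seen.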

Additional observations from a re-analysis of the deposited data

How the results depend on the processing

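Over 111 refits of the 9 tested members (other scalings, filters and tools, the replicate block, and each library left out), no direction reversed and 99 kept their side of the threshold. The 12 others were losses of the Igf1 call, in 8 of 12 alternatives (adjusted p over all 12 of 0.000258 to 0.205), and of the Igfbp6 call, in 4 of 12 (over all 12, 0.00032 to 0.0689). The 99 include all 12 refits each of Igfbp2, Igfbp4 and Igfbp5, whose difference was fixed by the filter in part. They also include the 12 of Igf2bp1, which stayed uncalled. The 4 members called higher and 4 called lower became 1 and 2 when a gene needed 1 CPM or more in each library. This filter removes genes absent from a line and also genes that are only low in a library, such as Igf1 and Igfbp6. With the replicate block, which the data do not support as a pairing (1 of 3 mK3 libraries correlated best with its own number), 2 were called lower and 4 higher. Leaving out 1 library gave 4 higher throughout and 2 to 3 lower.

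Among the other ligand, receptor and binding genes, 1 was called higher and 0 lower. Without TMM scaling, with DESeq2 and with limma-voom 2 were higher, and with RLE scaling and DESeq2 1 was lower; leaving out 1 library gave 1 to 3 higher and 0 to 1 lower. With the 1 CPM filter, 2 protease genes were lower instead of 6 and 2 IGF2BP-related genes higher instead of 4. The 10 lower calls among the IGF2BP-related genes became 7 without TMM scaling and 12 with DESeq2. Asking for 50% of each peak to be shared left 10 instead of 16 mK4 peaks with a partner. Over all genes, leaving out 1 library gave 3446 to 3896 higher and 3388 to 3607 lower calls. With the bound of 3 counts per library, a gene at 0 throughout a line may stand at up to 0.0242 CPM in mK3 or 0.022 CPM in mK4.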
